A study of Mus musculus with 6 samples.

Results

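The piRNA pathway genes examined here were 10 named genes, *Piwil1*, *Piwil2*, *Piwil4*, *Tdrd1*, *Tdrd5*, *Tdrd9*, *Tdrkh*, *Mov10l1*, *Pld6*, and *Gtsf1*. Their CpG sites were taken as all sites whose closest transcription start site (TSS) belonged to a gene of that name, at any distance. This gave 494 of the 2268080 sites in the table, of which 75 had at least 10 reads in all 6 samples, out of 681804 such sites in all. At a minimum of 5 reads, 147 of their sites remained. Sites within 1000 bp of the TSS are called promoter sites, and more distant ones are called distal sites. DNA methylation was measured by reduced representation bisulfite sequencing (RRBS), which reads CpG-rich fragments after bisulfite treatment, and every read then counts a CpG as methylated or unmethylated. The methylation level of a site is the share of its reads that were methylated, in percent.

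GS cells are spermatogonia kept in culture, with spermatogonial stem cells among them. All samples were spermatogonia of the genotype DBA/Tg14(act-EGFP-OsbY01), in which the actin promoter drives EGFP. The 3 samples of Space GS cells had been cryopreserved for 6 months in the ISS and the 3 samples of Ground GS cells for 6 months on Earth. Both groups had thus been frozen and thawed. According to the paper, the cells for RRBS were then passaged in culture before they were analysed. The labels do not state whether the 3 samples of a group were separate cultures, and the paper lists the RRBS data as 3 experiments. The p-values measure the spread between these samples, which may be technical. The reads summed over all sites ranged from 28535973 to 33743845 per sample, and the median coverage of the 75 sites ranged from 27 to 35 reads.

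PIWI-interacting RNAs (piRNAs) are small RNAs of germ cells that guide PIWI proteins to transposon transcripts. PIWI proteins cut these transcripts in the cytoplasm, and in fetal male germ cells nuclear *Piwil4* directs DNA methylation to transposons. Many piRNA pathway genes have CpG-rich promoters that are methylated in somatic tissues and unmethylated in germ cells. The promoter levels of germ cell genes bear on the labelled cell type. *Ddx4*, *Dazl*, *Mael*, and *Sycp3* had promoter levels of 0.74% to 2.46%, and 5 of 5 spermatogonial genes (*Zbtb16*, *Gfra1*, *Id4*, *Etv5*, and *Ret*) had levels of 1.38% to 2.38%. Among 5 genes of other cell types (*Sox9*, *Amh*, *Col1a1*, *Col1a2*, and *Thy1*), the 2 with a promoter site, *Sox9* and *Col1a2*, also had low levels, 1.93% and 2.03%, so promoter levels did not tell these cell types apart.

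RefSeq promoter windows, 250 bases before to 50 after the start in the build GRCm38.p6, were found for 9 of the 10 genes and not for *Piwil2*. The table of methylation levels uses another build, mm39, so no measured site was placed on a window. The following 4 windows are shown because these genes had sites within 500 bp of the TSS with at least 5 reads in every sample. Capitals mark each CpG, the dinucleotide at which methylation is counted. The covered sites of *Tdrd1* and *Tdrd9* lay 148 to 313 and 210 to 241 bp downstream of the TSS. The windows hold 50 bases after the start. If the starts agree between the builds, no marked CpG of *Tdrd1* or *Tdrd9* is one of these covered sites. The marked CpGs of *Tdrd5* and *Pld6* need not be the measured ones either.

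Tdrd1: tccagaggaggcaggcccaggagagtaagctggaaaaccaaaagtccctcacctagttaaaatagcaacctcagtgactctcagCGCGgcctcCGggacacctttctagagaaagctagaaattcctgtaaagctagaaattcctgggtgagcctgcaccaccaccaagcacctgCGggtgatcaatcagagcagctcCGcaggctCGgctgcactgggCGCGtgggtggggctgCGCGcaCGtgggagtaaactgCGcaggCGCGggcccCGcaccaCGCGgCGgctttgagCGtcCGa

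Tdrd5: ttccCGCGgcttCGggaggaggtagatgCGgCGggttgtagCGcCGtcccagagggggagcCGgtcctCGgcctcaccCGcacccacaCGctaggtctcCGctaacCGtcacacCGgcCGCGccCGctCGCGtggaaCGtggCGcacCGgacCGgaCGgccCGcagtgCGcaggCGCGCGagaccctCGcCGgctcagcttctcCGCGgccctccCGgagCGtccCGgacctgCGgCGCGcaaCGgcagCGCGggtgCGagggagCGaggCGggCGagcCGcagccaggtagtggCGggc

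Tdrd9: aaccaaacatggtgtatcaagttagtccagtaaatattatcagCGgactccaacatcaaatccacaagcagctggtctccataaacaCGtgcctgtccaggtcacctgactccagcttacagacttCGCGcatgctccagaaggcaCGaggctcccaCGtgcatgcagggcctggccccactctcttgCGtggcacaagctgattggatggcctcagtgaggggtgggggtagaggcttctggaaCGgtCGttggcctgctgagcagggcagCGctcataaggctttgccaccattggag

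Pld6: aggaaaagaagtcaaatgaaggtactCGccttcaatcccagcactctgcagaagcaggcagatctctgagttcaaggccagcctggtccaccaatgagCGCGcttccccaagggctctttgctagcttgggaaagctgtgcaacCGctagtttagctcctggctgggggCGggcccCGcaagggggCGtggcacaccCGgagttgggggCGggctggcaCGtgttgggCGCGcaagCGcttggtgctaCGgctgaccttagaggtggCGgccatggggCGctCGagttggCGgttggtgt

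The *Tdrd1* window (chr19:56825959-56826258, plus strand) had 20 CpGs, and the *Tdrd5* window (chr1:156303299-156303598, minus strand) had 48. The *Tdrd9* window (chr12:111971309-111971608, plus strand) had 10, and the *Pld6* window (chr11:59787608-59787907, minus strand) had 18. The median over 32851 windows was 7. *Tdrd5* was at the 99.0th percentile by CpG number and had 7 copies of CCGG, the MspI site commonly used to cut DNA for RRBS. *Tdrd9* was at the 58.6th percentile and had no CCGG in its window. CCGG was found in 6 of the 9 windows, against 52.78% of all windows.

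The other 3 motifs were searched on both strands, and CpGs inside a motif are counted above as well. CACGTG, the E-box, was found in 5 of the 9 windows (*Piwil1*, *Tdrd1*, *Tdrd9*, *Mov10l1*, and *Pld6*), against 7.15% of all windows. AACNG or its complement CNGTT, the core bound by MYB proteins, was found in 8 of the 9, against 80.29%. GCGGGA or TCCCGC, the core of E2F sites, was found in 1 of the 9 (*Tdrd5*), against 19.98%. These matches are a description of the windows.

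Coverage differed between the genes. At 10 reads, *Piwil1* had 25 sites, *Tdrd1* 20, *Pld6* 8, *Piwil2* 7, *Tdrd5* 6, *Mov10l1* 6, and *Tdrd9* 3, while *Piwil4*, *Tdrkh*, and *Gtsf1* had none. Of the 75 sites, 30 were promoter sites and 45 were distal sites. Neighbouring sites often had the same number of reads in a sample, since a read covers several CpGs, so sites are not independent measurements. The 6 sites whose lowest coverage was exactly 10 were distal sites of *Tdrd1* with mean levels of 94.9% to 100%, and the 6 sites just below the minimum, with 9 reads, belonged to *Piwil1* and *Mov10l1*, at 4.04% to 99.1%.

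Promoter sites were nearly unmethylated and distal sites nearly fully methylated in both groups. Of the 30 promoter sites, 29 had a mean level under 10%, and of the 45 distal sites, 39 had one over 90%, 5 were between, and 1 was under 10%. Over all genes, 98.7% of 390568 promoter sites were under 10% and 34.7% of 291236 distal sites were over 90%. Among all sites with 10 reads, the share over 90% was 15.3% at 1 to 5 kb from a TSS and 37.7% at 5 to 20 kb. The sites of the piRNA pathway genes in these 2 ranges had mean levels of 98.5% (6 sites, *Tdrd1*) and 97.7% (20 sites of 3 genes), against 20.7% and 45.7% over all sites. Beyond 20 kb their mean was 74.2% (19 sites of 2 genes), against 57.8%. The 6 *Tdrd1* sites lie in a single stretch 2300 to 2444 bp from the TSS, with 10 to 15 reads each. At 5 reads, the range of 5 to 20 kb also held 3 *Piwil1* sites at 4.48%. The other stretches of neighbouring sites in that range were at 88.7% or more.

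**Figure D1:**
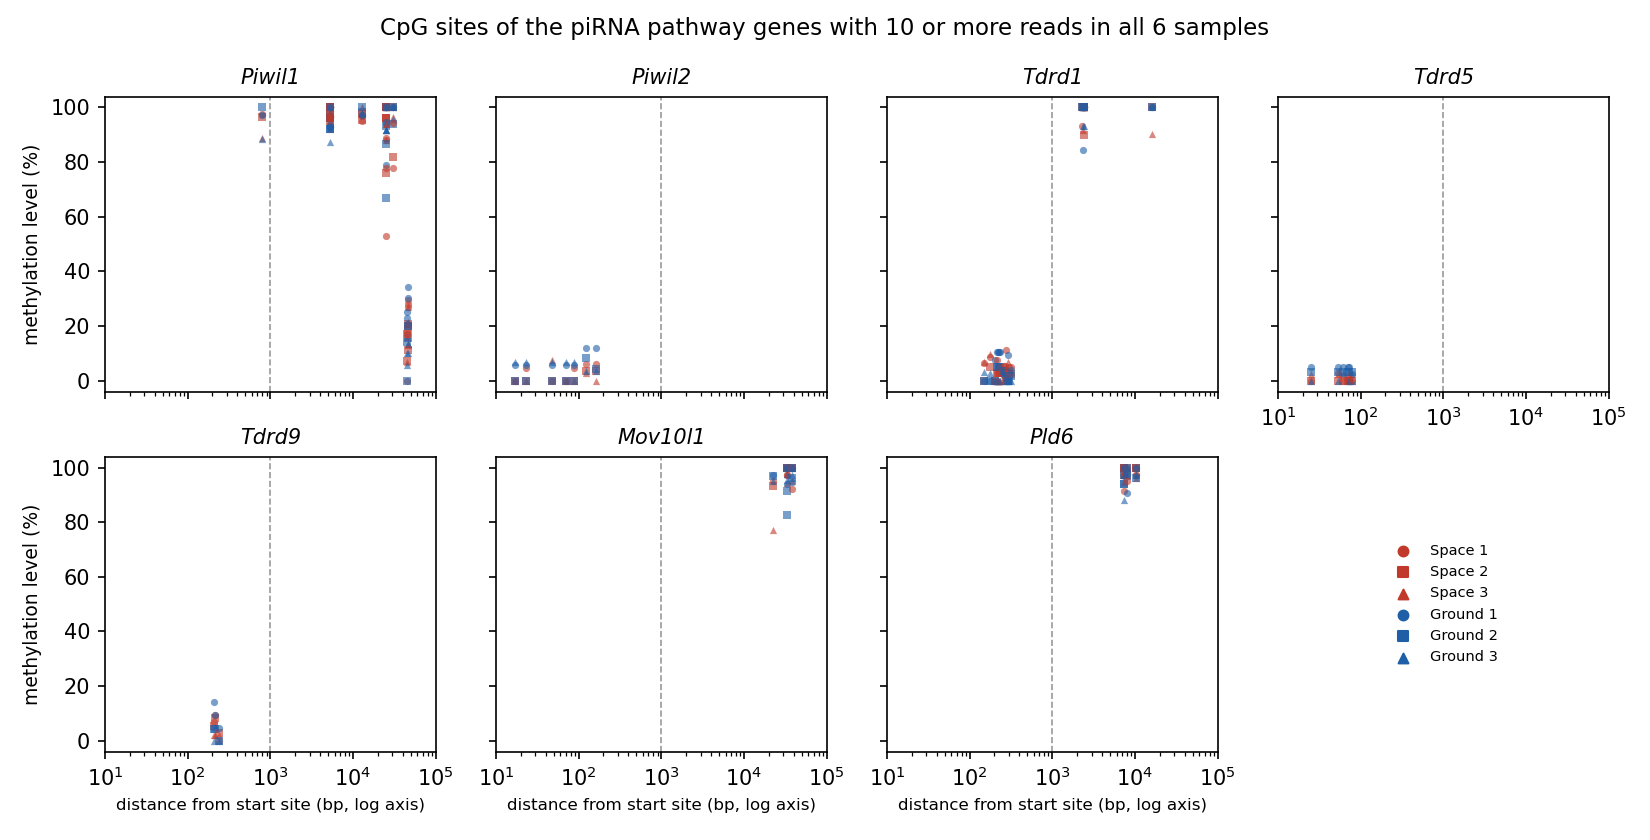
Methylation level (y axis, percent) of each site with 10 or more reads against its distance from the TSS (x axis, bp, log axis) for the 7 genes with such sites, with 1 point per sample and a dashed line at 1000 bp. Promoter sites lie near 0% except the single site of *Piwil1*, and 39 of the 45 distal sites have a mean over 90%. The other 6 are sites of *Piwil1*, of which 5 lie 45495 to 45864 bp upstream and 1 lies 25258 bp downstream.

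Among the PIWI genes, *Piwil2* (ENSMUSG00000033644, TSS at chromosome 14, 70666832, mm39, minus strand) encodes MILI, the PIWI protein of spermatogonia and spermatocytes. Its 7 promoter sites, 17 to 164 bp from the TSS, had levels of 3.41%, 1.14%, and 1.48% in the Space samples 1, 2, and 3 and 7.26%, 1.81%, and 5.43% in the Ground samples, in the same order as in all such series of values here. The groups overlapped, and Ground 1 and Ground 3 were the highest samples. The means were 2.01% ± 1.22 and 4.83% ± 2.77 (SD, n = 3), a difference of -2.82 percentage points that did not pass (adjusted p = 0.947, quasi-binomial test). It was -1.61 without Ground 1 and -4.33 without Ground 2. All 7 sites had a lower mean in Space GS cells, and they share reads, with 124 to 176 summed reads per sample. At 5 reads, 6 distal sites of *Piwil2*, 7924 to 18528 bp downstream, were at 89.4% to 100% in the 6 samples.

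*Piwil1* (ENSMUSG00000029423, TSS at chromosome 5, 128779588, plus strand) encodes MIWI, the PIWI protein of late spermatocytes and spermatids. It had 1 promoter site, 795 bp downstream of the TSS (chromosome 5, 128780382). Its levels were 97.7%, 96.6%, and 88.9% in Space GS cells and 97.4%, 100%, and 88.5% in Ground GS cells, with 14 to 44 reads. It was the only site among the 30 promoter sites that was methylated, and the next site by distance, at 2300 bp from the TSS of *Tdrd1*, was also methylated. The groups overlapped, with means of 94.4% ± 4.80 and 95.3% ± 6.05. Since no other site within 1000 bp was listed for *Piwil1*, its TSS itself was not measured. Whether this TSS is the start of the RefSeq window of *Piwil1* was not tested. The site may therefore not lie at the promoter in that window, and the same limit holds for the distances of all *Piwil1* sites.

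The 24 distal sites of *Piwil1* had summed levels of 72.6%, 76.3%, and 78.0% in Space GS cells and 75.4%, 74.8%, and 79.9% in Ground GS cells. Within them, 5 sites 45495 to 45864 bp upstream of the TSS (chromosome 5, 128733723 to 128734092) were at 11.4% to 26.5% per sample, and every other stretch of neighbouring sites was at 83.8% or more in every sample. The 5 sites are assigned to *Piwil1* only because its TSS is the closest. At 5 reads, 7 more sites fell in the same stretch, and the 12 sites together had a level of 21.1% (324 of 1532 reads), from 10.6% to 25.7% per sample. The 5 sites next to it, 46470 to 46583 bp upstream, were at 94.8% to 100%. A further 3 sites, 18263 to 18291 bp upstream, had 9 methylated of 201 reads (4.48%), from 0% to 15.6% per sample. Ground 2 held 7 of the 9, and without it the level was 1.28% (2 of 156 reads). In contrast, the sites 5224 to 5318 bp upstream were at 97.0% to 98.9%. The groups overlapped in all of these stretches.

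**Figure D2:**
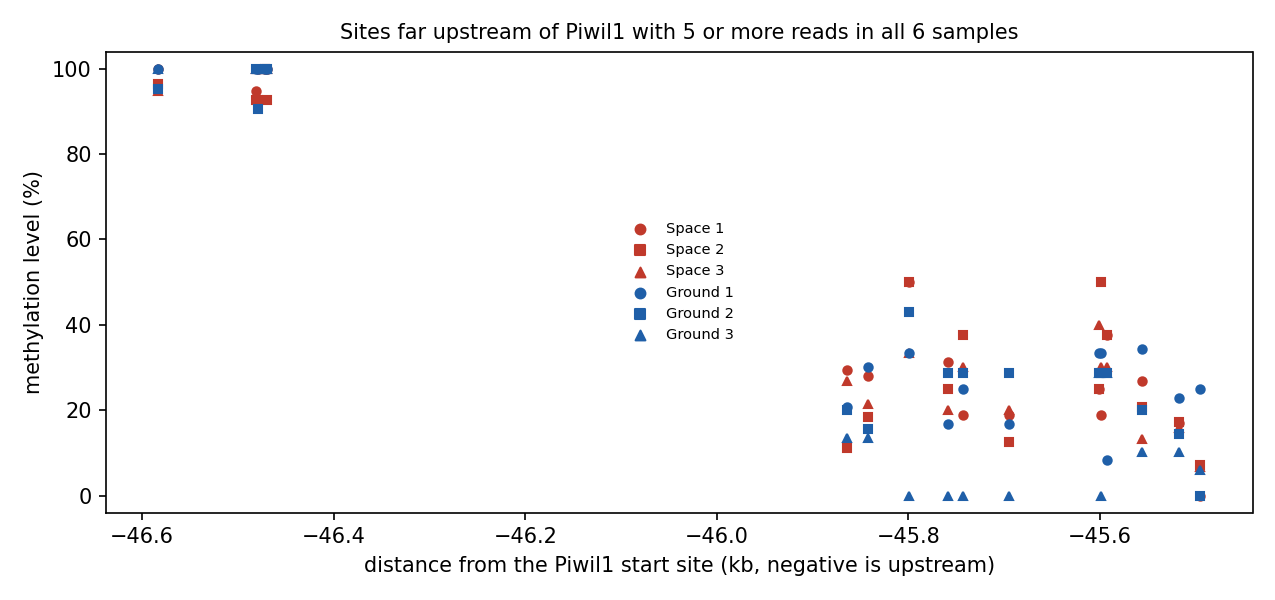
Methylation level (y axis, percent) at sites with 5 or more reads far upstream of *Piwil1*, against the distance from its TSS (x axis, kb), with 1 point per sample. The 5 sites on the left lie at or above 90% and the 12 sites on the right at or below 50% in all 6 samples.

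*Piwil4* (ENSMUSG00000036912, TSS at chromosome 9, 14652036, minus strand), which encodes the nuclear PIWI protein MIWI2, had no site at 5 reads. At a minimum of 1 read, a setting added after the data were seen, its 16 distal sites 1418 to 12100 bp from the TSS were at 96.5%, 97.1%, and 96.2% in Space GS cells and 98.7%, 100%, and 97.9% in Ground GS cells. The groups did not overlap, with means of 96.6% ± 0.431 and 98.9% ± 1.05, on 58 to 132 summed reads per sample, and the difference did not pass (adjusted p = 0.942, quasi-binomial test at 1 read). At this minimum the groups did not overlap in 1 of 7 genes at distal sites (*Piwil4*), against 9.75% of all genes, and in 1 of 6 at promoter sites (*Tdrd5*), against 9.13%. Of these 13 comparisons 0 passed, against 0% of all genes. The promoter sites of *Piwil4*, 3 in number, had 3 reads in all, none methylated.

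Among the Tudor domain genes, whose products hold PIWI proteins in germ granules by binding methylated arginines, *Tdrd1* (ENSMUSG00000025081, TSS at chromosome 19, 56814641, plus strand) was the best covered. Its 13 promoter sites, 148 to 313 bp downstream of the TSS, had levels of 5.77%, 2.47%, and 3.10% in Space GS cells and 4.59%, 2.92%, and 0.517% in Ground GS cells. The groups overlapped, and the means of 3.78% ± 1.76 and 2.68% ± 2.05 differed by 1.10 percentage points (adjusted p = 0.964). The difference was 0.107 without Space 1, 1.76 without Space 2, 2.06 without Ground 1, and 0.0245 without Ground 3. Its 7 distal sites, 2300 to 15956 bp downstream, were at 99.1%, 98.9%, and 95.6% in Space GS cells and 98.1%, 100%, and 98.5% in Ground GS cells (adjusted p = 0.982).

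*Tdrd5* (ENSMUSG00000060985, TSS at chromosome 1, 156131234, minus strand) is needed for piRNA production in meiotic germ cells. Its 6 promoter sites were at 0.476%, 0%, and 2.50% in Space GS cells and 4.47%, 3.12%, and 0.476% in Ground GS cells (means 0.992% ± 1.33 and 2.69% ± 2.03, adjusted p = 0.952). The level of 0% in Space 2 rested on 138 summed reads. At 5 reads, 19 sites within 94 bp of the TSS gave 0% to 3.32% per sample, and at 1 read its 25 sites had means of 0.857% ± 0.538 in Space and 2.24% ± 0.611 in Ground GS cells (adjusted p = 0.896). Without Ground 1 the difference at 10 reads was -0.809, and without Ground 3 it was -2.81.

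*Tdrd9* (ENSMUSG00000054003, TSS at chromosome 12, 111937993, plus strand), which encodes an RNA helicase with a Tudor domain, had 3 promoter sites 210 to 241 bp downstream. Levels were 5.34%, 5.56%, and 2.10% in Space GS cells and 9.52%, 2.78%, and 1.63% in Ground GS cells. Ground 1 was the highest sample and Ground 3 the lowest, and the means of 4.33% ± 1.94 and 4.64% ± 4.27 differed by -0.31 percentage points (adjusted p = 0.998). Without Ground 1 this difference was 2.13, and without Space 3 it was 0.807.

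*Tdrkh* (ENSMUSG00000041912, TSS at chromosome 3, 94320580, plus strand), which encodes a mitochondrial Tudor protein needed to trim piRNAs, had 15 promoter sites 19 to 141 bp from the TSS. Reads were present in 4 of the 6 samples, and each site had 8 reads in all with none methylated, which allows a level of up to 37.5% at a site.

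Among the genes of piRNA processing, *Mov10l1* (ENSMUSG00000015365, TSS at chromosome 15, 88867112, plus strand) encodes an RNA helicase that binds piRNA precursors. Its 6 distal sites, 22221 to 38331 bp downstream, were at 97.1%, 98.9%, and 95.2% in Space GS cells and 97.7%, 94.8%, and 97.1% in Ground GS cells (adjusted p = 0.994). At 5 reads, its 4 promoter sites 681 to 712 bp downstream were at 1.47%, 8.82%, and 12.7% in Space GS cells and 2.78%, 0%, and 5.77% in Ground GS cells. The groups overlapped, with 36 to 68 summed reads per sample and a difference of 4.82 (adjusted p = 0.93).

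*Pld6* (ENSMUSG00000043648, TSS at chromosome 11, 59678471, minus strand) encodes MitoPLD, a nuclease on mitochondria that cuts piRNA precursors. Its 8 distal sites were at 97.0%, 99.3%, and 98.4% in Space GS cells and 98.1%, 97.4%, and 96.8% in Ground GS cells (adjusted p = 0.972). At 5 reads, its 22 promoter sites within 159 bp of the TSS were at 0%, 0.379%, and 0% in Space GS cells and 0%, 17.4%, and 0% in Ground GS cells. Only Ground 2 stood apart, with 1 methylated read of 6 at 21 of the 22 sites and 2 of 6 at the other. Each of the 22 sites had exactly 6 reads in Ground 2, so they may be the same reads. The difference of -5.68 percentage points did not pass (adjusted p = 0.903).

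*Gtsf1* (ENSMUSG00000022487, TSS at chromosome 15, 103338897, minus strand), a zinc finger cofactor that PIWI proteins need to cut their targets, was covered at 5 reads only at 3 distal sites, 18567 to 18592 bp downstream. Levels were 93.3%, 86.7%, and 90.2% in Space GS cells and 90.2%, 91.7%, and 85.7% in Ground GS cells.

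**Figure D3:**
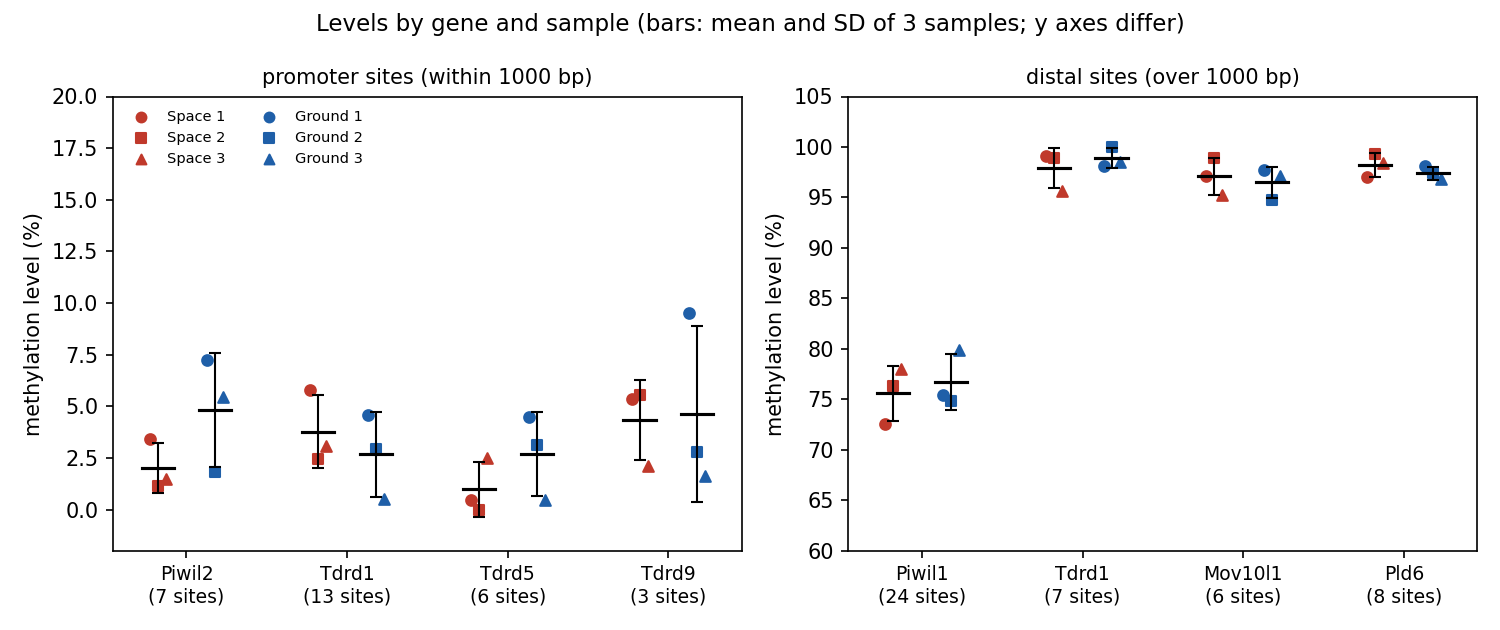
Methylation level (y axis, percent) of each gene with 3 or more sites of 10 reads, at promoter sites on the left and distal sites on the right, with 1 point per sample and bars for the mean and SD of 3 samples. Space and Ground samples overlap for every gene, and the axes cover different ranges.

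Of the 4 genes tested at promoter sites and the 4 tested at distal sites, 0 differed between Space and Ground GS cells (quasi-binomial test with limma's moderated dispersion, adjusted over all genes). The background was 0% of 14361 promoters and 0% of 17203 genes at distal sites, of which 763 (5.31%) and 942 (5.48%) had an unadjusted p under 0.05. The groups overlapped in all 8 comparisons, while they did not in 9.55% of all promoters and 9.74% of all genes at distal sites. The quasi-likelihood test of edgeR and limma on log2 ratios also called 0. Averaged over the genes, the promoter level was 2.78% ± 0.842 in Space and 3.71% ± 2.40 in Ground GS cells. The distal level was 92.2% ± 1.02 and 92.4% ± 0.678. All genes averaged 4.64% and 4.55% at promoters and 58.6% and 58.3% at distal sites. By the median the order at promoters was the other way. The 4 piRNA pathway genes had a median of 3.32%, against 1.82% over the 14361 promoters, whose upper quartile was 2.33%. Distal levels varied widely over all genes, with an upper quartile of 92.8% and 28.5% of the 17203 genes over 90%.

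At single sites, 16 of the 75 had a mean level of 5% to 95% and were tested, of which 0 passed, against 0% of 92037 sites, and 0 had an unadjusted p under 0.05, against 5.61%. The groups did not overlap at 5 of the 75 sites (6.67%), against 4.99% of all sites (Space higher at 3, background 2.66%, and Ground higher at 2, background 2.33%), and the group means differed by over 5 percentage points at 7 (9.33%), against 9.14%. Both shares are near the background. No site differed by over 20 points, which 0.196% of all sites did.

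The largest difference was at a site 30482 bp downstream of *Piwil1* (chromosome 5, 128810069), with 77.8%, 81.8%, and 96.4% in Space GS cells and 100%, 93.8%, and 95.7% in Ground GS cells, a difference of -11.1 (adjusted p = 0.948). The groups overlapped there, on 11 to 28 reads. At promoters, the largest was 175 bp downstream of *Tdrd1* (chromosome 19, 56814815), with 8.82%, 5%, and 9.68% against 0%, 0%, and 2.63%. Its mean was under 5%, so it entered only the test of all 613931 sites with a methylated and an unmethylated read, where it did not pass (unadjusted p = 0.0118, adjusted p = 0.543). In that test 73 of the 75 sites entered, 0 passed, and 4 had an unadjusted p under 0.05, against 9.16% of all sites. In the test at 5% to 95% this share of all sites was 5.61%. Unadjusted p-values under 0.05 were thus more frequent once sites near 0% or 100% entered. The groups did not overlap at the *Tdrd1* site 175 bp downstream, nor at a second *Tdrd1* promoter site, 296 bp downstream. At the latter, Space GS cells had 5.08%, 2.44%, and 3.23% and Ground GS cells 0%, 1.85%, and 0%. In contrast, at a *Tdrd5* site 62 bp downstream the Ground samples were the higher, with 4.88%, 3.12%, and 2.86% against 0%, 0%, and 2.50%. The remaining sites without overlap were 22221 bp downstream of *Mov10l1*, where Space 3 was the lowest at 77.3% and the difference was -7.87 (adjusted p = 0.945), and 5224 bp upstream of *Piwil1*, with a difference of 5.6 (adjusted p = 0.951). The site with the smallest unadjusted p, 0.114, was 33373 bp downstream of *Mov10l1* (difference 6.65, adjusted p = 0.937), and the fifth, 45495 bp upstream of *Piwil1*, differed by -5.69 (adjusted p = 0.963).

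**Figure D4:**
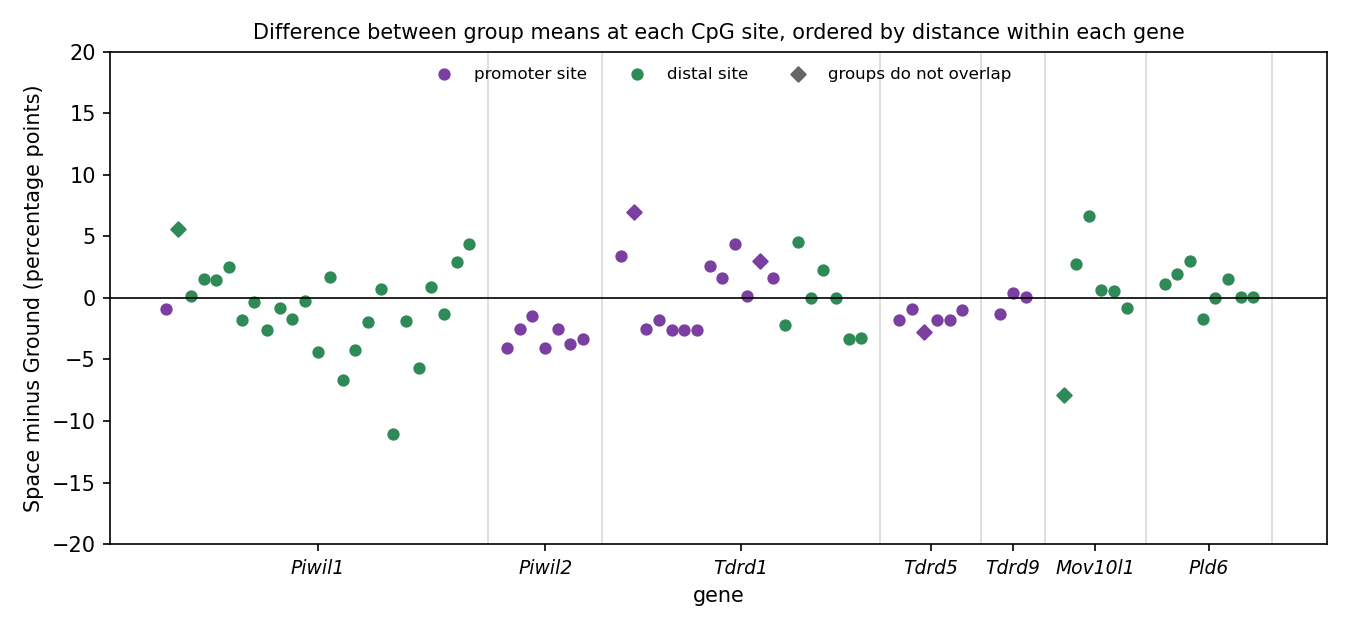
Space minus Ground difference of group means (y axis, percentage points) at each of the 75 sites, by gene (x axis) and in order of distance within a gene, with promoter and distal sites coloured and diamonds for sites whose groups do not overlap. The differences lie between -11.1 and 6.96, on both sides of 0.

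The largest site differences in the remaining genes and classes were 4.57 points at a *Tdrd1* distal site 2353 bp downstream, -4.07 at a *Piwil2* promoter site 71 bp downstream, 2.97 at a *Pld6* site 7385 bp upstream, and -1.33 at a *Tdrd9* site 210 bp downstream, and the groups overlapped at each.

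*Tdrd1* was the only gene of the 10 with 3 or more sites of 10 reads in both classes. Its distal level exceeded its promoter level by 93.3, 96.5, and 92.5 percentage points in Space GS cells and by 93.5, 97.1, and 98.0 in Ground GS cells. The mean of 95.1 ± 0.968 (SE, n = 6) differed from 0 (adjusted p = 1.8e-12, limma), as was the case with distal higher in 87.7% of the 8411 genes tested, and the promoter was the higher in 2.45%. It was at the 89.9th percentile of these genes, whose median was 55.3. At 5 reads, where 88.7% of 10907 genes passed with distal higher, *Mov10l1* (91.7 ± 1.84 SE, adjusted p = 2.66e-10), *Piwil2* (90.5 ± 1.86, adjusted p = 3.11e-10), and *Pld6* (95 ± 2.53, adjusted p = 1.84e-09) passed as well, and the median of all genes was 60.8. The lowest single value among these 4 genes was 80.1, for *Pld6* in Ground 2.

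The contrast itself did not pass a test of Space against Ground GS cells. For *Tdrd1* the difference was -2.10 ± 1.90 (SE), with means of 94.1 ± 2.09 and 96.2 ± 2.39 (SD, n = 3, adjusted p = 0.968, limma), and the background was 0% of 8411 genes (405 with an unadjusted p under 0.05). At 5 reads the differences were -4.29 ± 3.57 for *Mov10l1*, 2.06 ± 3.91 for *Piwil2*, and 6.39 ± 4.83 for *Pld6*, and 0 of 10907 genes passed.

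**Figure D5:**
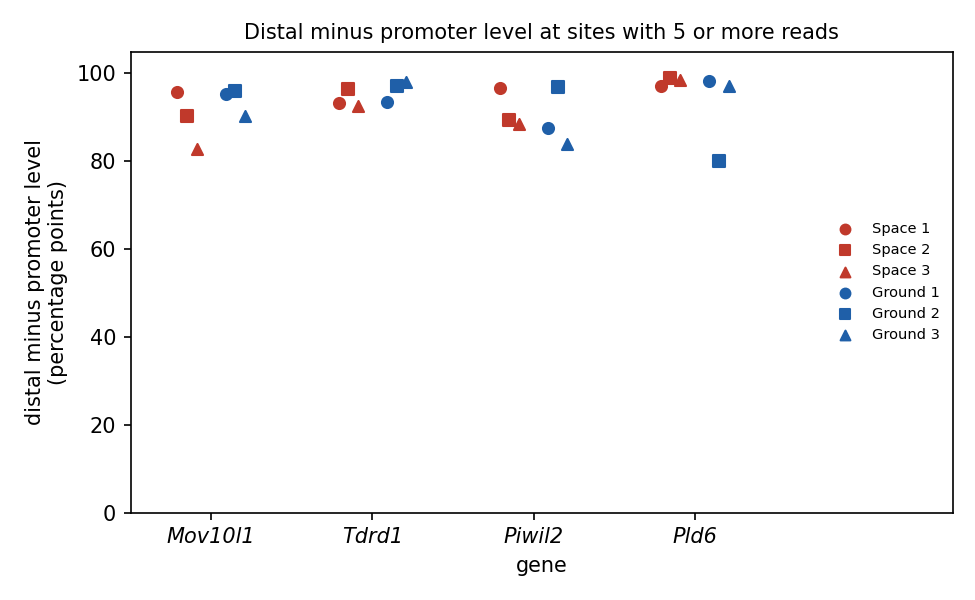
Distal minus promoter level (y axis, percentage points) of the 4 genes (x axis) with 3 or more sites of 5 or more reads in both classes, with 1 point per sample. All values lie between 80.1 and 98.9, and Space and Ground samples overlap.

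A list of 22 other piRNA pathway genes was examined at promoters only. Of the 17 with at least 3 promoter sites of 10 reads, 16 had a level under 10%, against 95.3% of 14361 promoters. Their median was 1.92%, against 1.82%, so these levels are near the background. In the test of Space against Ground GS cells 0 passed, against 0% of all promoters, and 0 had an unadjusted p under 0.05, against 5.31%. *Tdrd7*, a Tudor domain gene, was the exception at 52.2%, with 3 sites at 54.7% ± 10.8 in Space and 49.7% ± 17.0 in Ground GS cells (30.5% to 63.6% per sample, adjusted p = 0.988). *Btbd18*, a regulator of pachytene piRNA transcription, had 1.11% ± 1.40 against 4.23% ± 3.81 (adjusted p = 0.928). *Pnldc1*, the exonuclease that trims piRNAs, had 9.43% ± 6.02 against 7.15% ± 3.52 (adjusted p = 0.966). These 3 genes had the largest promoter differences of the list, and their groups overlapped. The groups did not overlap in 1 of the 17 genes, against 9.55% of all promoters. This gene, *Exd1*, was named after its values were seen. It had 3.6% ± 1.18 in Space and 1.85% ± 0.584 in Ground GS cells (unadjusted p = 0.0793, adjusted p = 0.928, quasi-binomial test).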

How the data were processed

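DNA methylation was measured by RRBS in 3 samples of Space and 3 of Ground GS cells. The authors deposited 1 table, in which every CpG site has a read count per sample (its coverage), a percent of methylated reads, and the closest TSS and gene. Per the labels, libraries were made with the Zymo-Seq RRBS kit, and the submitters' processing notes name Bismark 0.24.2, Trim Galore, methylKit, and mm39, without parameters. Removal of duplicated reads is not given in the sources used here, and copies of 1 molecule would make levels look more precise than they are. Positions are those of the table. On chromosome 19, 96.4% of 25248 sites fell on the C of a CpG when their offset from the gene start was applied to GRCm38.

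The methylated reads of a site were obtained by multiplying its coverage and its percent, which came within 0.000266 of a whole read. Sites needed 10 reads in all 6 samples, and genes needed 3 sites in a class. A gene level is the methylated share of the reads summed over its sites. Group differences were tested with a quasi-binomial test whose dispersion was moderated with limma 3.58.1 (R 4.3.3), at sites with a mean of 5% to 95%, at promoters, and at distal sites. Distal minus promoter levels were tested with limma. P-values were adjusted over all features (Benjamini-Hochberg), with a threshold of 0.05. Groups of neighbouring sites had gaps of at most 350 bp. The members, lists, and rules were chosen with earlier results of these data known. The text names the 10 genes, in each the site with the largest difference per class, the 5 sites with the smallest p, and, of the 22 other genes, those with a promoter level of at least 20% and the 3 with the largest difference. Sites without overlap and stretches of *Piwil1* were chosen after their values were seen. In simulated data with 200 changed features, 92% of promoters and 71% of distal levels changed by 20 points were called, and 0.5% of single sites (59% at 40 points). Intervals and limits from counts cover counting error only, and the limit for no methylated read is 3 reads. The alternatives were a minimum of 5 or 20 reads, windows of 500 or 2000 bp, genes with 1 site, mean site levels, edgeR 4.0.16, limma on log2 ratios with 2 reads added, sites with any mixed reads, a replicate block, and leaving out each sample. Figures were drawn with matplotlib.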

Additional observations from a re-analysis of the deposited data

How the results depend on the processing

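No gene, promoter or distal, and no site of the piRNA pathway genes was called between Space and Ground GS cells under any alternative run. Without Space 2, Space 3, or Ground 1, the sites called over the whole table were 1, 3, and 5, so leaving out a sample gave 0 to 5, and none belonged to these genes. The distal minus promoter contrast was called in 4 of these genes at 5 reads, in 2 with 1 site per gene (*Tdrd1*, and *Piwil1* with its promoter site the higher, at -18.7, adjusted p = 0.000117, limma), and in 0 at 20 reads, where *Tdrd1* kept too few distal sites. Over all genes, 3922 were called at 20 reads against 7584, where fewer genes are tested. The mean distal level of the genes was 89.3% at 20 reads against 92.3%, and the mean promoter level was 21.6% with 1 site per gene against 3.24%, since the *Piwil1* site then enters.

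Small differences changed sign when 1 sample was left out, none of them called. The *Piwil1* distal difference became 0.431 without Space 1 and 0.507 without Ground 3 (range -2.26 to 0.507), that of *Mov10l1* -0.372 without Space 2 and -0.338 without Ground 2 (-0.372 to 1.48), and that of *Tdrd1* 0.148 without Space 3 (-1.62 to 0.148). The *Tdrd9* promoter difference became 0.807 without Space 3 and 2.13 without Ground 1 (-1.82 to 2.13). Among differences that kept their sign, leaving out 1 sample gave 0.0245 to 2.06 for the *Tdrd1* promoter, -4.33 to -1.61 for *Piwil2*, -2.81 to -0.809 for *Tdrd5*, and 0.297 to 1.46 for *Pld6* distal sites. The mean promoter difference of the genes ranged from -1.78 to 0.444, and the distal one from -0.76 to 0.198.

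The replicate numbers are shared between groups, and samples with the same number carry consecutive codes in their descriptions. The labels do not say that the numbers pair samples. The correlations of same-numbered samples were 0.0439, 0.022, and 0.00989, with a mean of 0.0253, against -0.0126 for samples with different numbers. Of the 6 samples, 5 correlated best with their own number. These are not correlations of the levels themselves, for which the paper reports a close correlation between the groups at promoter sites. With a replicate block, 0 genes and 0 sites were called, as without it.

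A change of 20 points at a single site was seldom called in simulated data. No site at the TSS of *Piwil1* was listed, and the promoters of *Piwil4*, *Gtsf1*, and *Tdrkh* were too thinly read to compare.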
